A study of Mus musculus with 6 samples.

Results

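The 9 genes described here run lipolysis, the breakdown of stored triglyceride in fat cells, and its adrenergic control. They were chosen by symbol from a list of lipases, lipase cofactors, beta-adrenergic receptors, an insulin-regulated phosphodiesterase and a glycerol channel: Pnpla2, Lipe, Mgll, Abhd5, G0s2, Adrb1, Adrb3, Pde3b and Aqp7. All 9 were among the 21829 genes of the deposited table, and all 9 averaged at least 1 FPKM (fragments scaled to transcript length and to the mapped total) and so were among the 12539 genes tested. RNA came from the epididymal white adipose tissue (a visceral fat depot) of male C57BL/6J mice, 20 weeks old and fed a normal diet. There were 3 libraries labelled ZFP251 KO, for loss of a zinc finger protein, and 3 from littermate wild-type (WT) mice, and the design asks what ZFP251 does in this fat pad. The labels name neither the allele, nor the way the gene was disrupted, nor whether each library is a mouse of its own, so p-values measure only the spread between libraries.

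Zfp251 itself, which checks the labels, went against them. It had 6.48, 5.86 and 6.48 FPKM in the KO-labelled libraries, against 3.73, 3.56 and 2.95 FPKM in WT, so every library labelled KO was above every WT library. The log2 difference of 0.72 (SE 0.12) had an adjusted p of 0.223 in limma. Values per gene do not tell which exons the reads covered. Directions below are therefore those of the KO-labelled libraries.

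In a fat cell, triglyceride is cut in sequence by 3 hydrolases. Adipose triglyceride lipase, encoded by Pnpla2, releases the first fatty acid; hormone-sensitive lipase, encoded by Lipe, cuts the diglyceride; and monoglyceride lipase, encoded by Mgll, frees the glycerol. Catecholamines start the cascade through beta-adrenergic receptors, cyclic AMP and protein kinase A, which phosphorylates hormone-sensitive lipase and the droplet coat protein perilipin. Perilipin then lets go of CGI-58, encoded by Abhd5, the coactivator of adipose triglyceride lipase. Insulin opposes the cascade through the phosphodiesterase encoded by Pde3b, which breaks down cyclic AMP.

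Across all 12539 genes, limma, a linear model fitted to log2(FPKM + 1), found 0 genes (0.0%) with a Benjamini-Hochberg adjusted p under 0.05 and 1700 (13.6%) with an unadjusted p under 0.05. The FPKM of all genes summed to between 426966 and 439354 in the KO-labelled libraries and between 468499 and 637902 in WT. The 12 adipocyte markers, none of them at 0 in any library, summed to between 28550 and 35120 FPKM in the KO-labelled libraries and between 40060 and 75810 FPKM in WT. The 11 multiciliated cell markers in the table, genes of motile cilia that fat cells lack, summed to between 44.2 and 98.3 FPKM in the KO-labelled libraries, whereas WT 1 had 35.3 FPKM, WT 2 had 0.818 and WT 3 had 0.758. In WT 2 and WT 3, 2 and 6 of these 11 were listed at 0, and in the other 4 libraries 0 were. The 8 epithelial markers summed to between 98.0 and 199 FPKM in the KO-labelled libraries and between 8.24 and 84.5 FPKM in WT. The part of these other cells in the differences below was not tested. The median log2 difference of the 12 adipocyte markers was -0.48 in the deposited scaling and -0.06 after quantile normalization. For all genes it was -0.05 and -0.06. The part of library scaling in the marker sums was not tested. In bulk tissue, fewer fat cells, less RNA per fat cell and library scaling cannot be told apart from these sums.

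In the KO-labelled libraries Pnpla2, Abhd5, Adrb1 and Adrb3 stood at 52.1% to 75.8% of their WT means. Lipe, Mgll, Pde3b and Aqp7 stood at 91.1% to 93.0% of theirs, a direction that turned in all 4 after quantile normalization, and G0s2 at 73.7%, which rested on WT 3. After quantile normalization the log2 differences of Pnpla2, Abhd5, Adrb1 and Adrb3 were -0.04, -0.28, -0.83 and -0.08. For Adrb1, WT 2 lay among the KO-labelled libraries. No member passed limma's adjusted threshold (0 of 9), and 1 of 9, Abhd5, had an unadjusted p under 0.05 with a lower level, against 4.43% of all genes tested. In 2 of 9, Pnpla2 and Mgll, every library labelled KO was below every WT library, as in 12.2% of all genes tested, and in 0 of 9 was every KO-labelled library above every WT library, against 10.1%. All 9 log2 differences were below 0 with the deposited scaling, as were 59.2% of all genes, but only 4 of 9 were below 0 after quantile normalization, as were 59.6% of all genes. The median over the 9 genes was -0.20 and that over all genes -0.05, and after quantile normalization they were 0.06 and -0.06. With the multiciliated marker level of each library as a covariate, 6 of 9 were below 0 with a median of -0.05, as were 6368 of the 12539 genes with a median of -0.004. That level, a mean log2(FPKM + 1), was 2.8, 2.83 and 1.91 in the KO-labelled libraries and 1.74, 0.098 and 0.088 in WT. It is thus confounded with group, and a fit with this covariate cannot separate it from group. With libraries weighted by their estimated quality, 3 of 9 (Pnpla2, Abhd5 and Adrb1) passed the adjusted threshold as lower, against 3.66% of all genes as lower and 7.74% in either direction. Without WT 1, 0 of 9 passed it, against 3.84% of all genes.

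**Figure D1:**
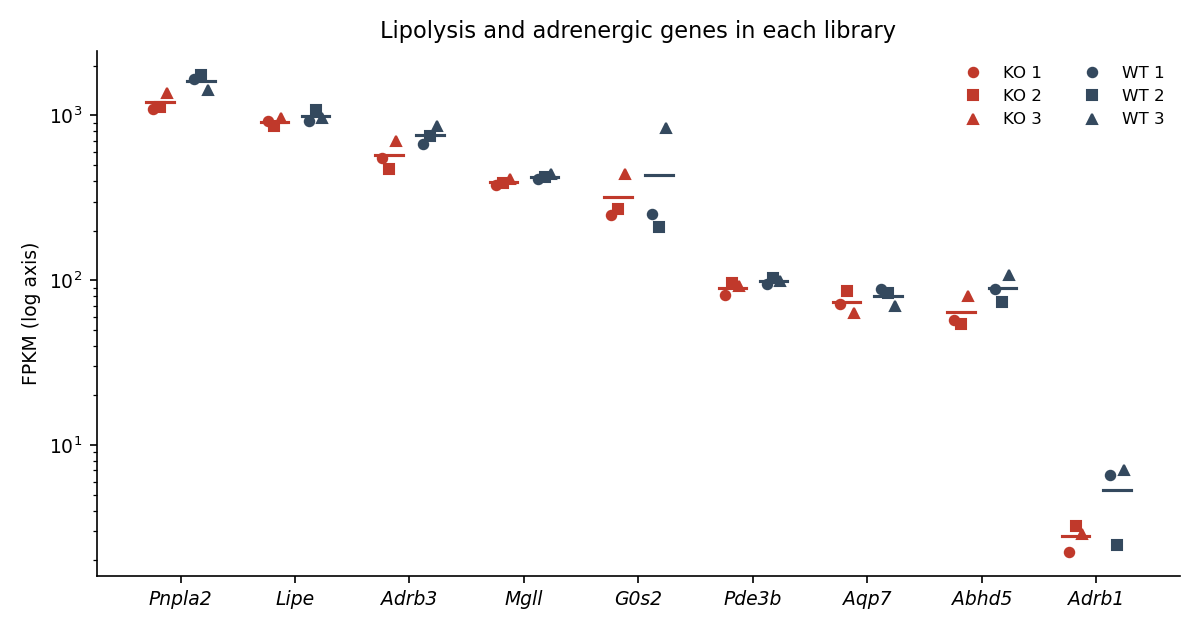
FPKM of the 9 lipolysis and adrenergic genes on a log axis, by library, with genes ordered from the highest mean over the 6 libraries to the lowest. Each point is a library (red, labelled KO; dark blue, WT; the symbol is the replicate number) and each bar a group mean of 3; Pnpla2 and Mgll are the genes whose groups do not overlap, and WT 3 stands at 839 FPKM for G0s2.

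Pnpla2 encodes the lipase that starts triglyceride breakdown (ENSMUSG00000025509, GRCm38 chr7:141455198-141460743, plus strand). It had 1098, 1128 and 1369 FPKM in the KO-labelled libraries, against 1661, 1768 and 1426 FPKM in WT. The groups do not overlap, and between the groups KO 3 and WT 3 are closest. The means were 1198 ± 149 FPKM in the KO-labelled libraries and 1618 ± 175 FPKM in WT (SD, n = 3 each), or 74.1% of the WT mean. The log2 difference was -0.43 (95% interval -0.90 to 0.03, limma adjusted p = 0.392), and an exact permutation test, two-sided, gave p = 0.1, the smallest that 3 libraries against 3 allow. Without any single library the difference ran from -0.53 to -0.37, with sample weights it was -0.54 (limma adjusted p = 0.0441, in a range up to 1.0 over the alternatives), and after quantile normalization it was -0.04.

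Abhd5 encodes CGI-58, the coactivator that binds the Pnpla2 product and raises its activity (ENSMUSG00000032540, chr9:122351608-122381524, plus strand). It had 57.2, 54.5 and 80.2 FPKM in the KO-labelled libraries, against 88.3, 73.7 and 107 FPKM in WT. KO 3 is above WT 2, so the groups overlap, while all 3 KO-labelled libraries are below the WT mean. The means were 64.0 ± 14.1 FPKM in the KO-labelled libraries and 89.6 ± 16.7 FPKM in WT (SD, n = 3 each). Its log2 difference of -0.49 (95% interval -0.96 to -0.01) had an unadjusted p of 0.0469 and an adjusted p of 0.362 in limma. Leaving out 1 library gave -0.66 to -0.35, and the unadjusted limma p ran from 0.0897 to 0.152 without KO 1, KO 2, WT 1 or WT 3. Sample weights gave -0.55 (limma adjusted p = 0.0479, in a range up to 1.0 over the alternatives), and quantile normalization gave -0.28. The multiciliated covariate gave -0.23, the length and GC correction -0.39 and median-ratio scaling -0.46. Under these 3 settings and quantile normalization limma's unadjusted p was between 0.0517 and 0.557, above 0.05. In GENCODE vM21, 950 bases of its exons lie opposite an antisense gene, and the strand setting of the counting is not given, so reads of the pair may not be separated.

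G0s2 encodes the protein that binds and inhibits the Pnpla2 lipase (ENSMUSG00000009633, chr1:193272161-193273217, minus strand). It had 249.7, 268 and 441 FPKM in the KO-labelled libraries, against 253, 209 and 839 FPKM in WT. The highest library is WT 3, while WT 1 lies among the KO-labelled libraries and WT 2 below them. The means of 319.8 ± 106 FPKM in the KO-labelled libraries and 434 ± 352 FPKM in WT (SD, n = 3 each) therefore rest on WT 3: the log2 difference was -0.19 with it (95% interval -1.46 to 1.07, limma adjusted p = 0.884) and 0.43 without it. The G0s2 transcript is 871 bases long. In WT 3 the 772 tested genes with transcripts under 1000 bases had a median of 0.57 above their own mean over the libraries on the log2 scale, against -0.17 to -0.03 in the other 5 libraries. On that scale G0s2 itself was 1.34 above its mean in WT 3, and 0.41 above it in KO 3, where the short transcripts stood at -0.13. With the length and GC correction the G0s2 difference was -0.003 (limma adjusted p = 0.998, in a range of 0.523 to 1.0 over the alternatives). The part of transcript length in the G0s2 values was not tested.

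The windows before these 3 genes are shown because the lipase, its coactivator and its inhibitor act together on the first cut. Each is the 250 bases before the RefSeq gene start, 5′ to 3′ on the gene's strand in GRCm38.p6, in lower case. Capitals mark GC boxes (GGGCGG, bound by Sp-family factors) and the core of the cyclic AMP response element (TGACG), each on either strand.
Pnpla2, chr7:141454938-141455187: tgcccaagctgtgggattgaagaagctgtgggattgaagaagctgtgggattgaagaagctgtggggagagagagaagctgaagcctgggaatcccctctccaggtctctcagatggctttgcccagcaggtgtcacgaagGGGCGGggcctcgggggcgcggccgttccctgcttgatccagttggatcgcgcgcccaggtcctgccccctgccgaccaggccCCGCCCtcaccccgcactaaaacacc
Abhd5, chr9:122351366-122351615: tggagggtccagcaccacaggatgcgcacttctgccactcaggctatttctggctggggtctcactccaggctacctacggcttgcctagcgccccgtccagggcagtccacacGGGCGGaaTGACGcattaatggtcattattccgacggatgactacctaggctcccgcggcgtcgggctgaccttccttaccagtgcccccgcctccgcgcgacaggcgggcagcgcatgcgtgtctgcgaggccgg
G0s2, chr1:193273189-193273438: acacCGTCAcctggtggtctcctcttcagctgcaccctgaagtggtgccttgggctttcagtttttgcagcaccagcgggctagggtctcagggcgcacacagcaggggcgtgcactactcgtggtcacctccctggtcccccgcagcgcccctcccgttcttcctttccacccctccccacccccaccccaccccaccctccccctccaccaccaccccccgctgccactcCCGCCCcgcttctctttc
The Pnpla2 window holds 2 GC boxes, and the Abhd5 and G0s2 windows hold 1 GC box and 1 TGACG each. RefSeq windows were at hand for 7 of the 9 genes, 10 windows in all, and not for Adrb3 and Pde3b. At least 1 GC box was in 6 of the 10, against 32.7% of all 32851 windows, and at least 1 TGACG was in 3 of the 10 (Abhd5, Adrb1 and G0s2), against 17.8%. The full element TGACGTCA, which contains TGACG, was in 0 of the 10 and in 1.55% of all windows. The E box CACGTG was in 2 of the 10, those of Lipe and Mgll, against 6.02%, and CCAAT in 1, that of Adrb1, against 33.8%. GC content was 63.2% in the Pnpla2 window, 64.8% in that of Abhd5 and 67.2% in that of G0s2, against a median of 52.4% over all windows. A match is a description of the letters, not of binding.

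Lipe encodes hormone-sensitive lipase, the diglyceride hydrolase phosphorylated by protein kinase A (ENSMUSG00000003123, chr7:25379527-25398710, minus strand). It had 926, 858 and 968 FPKM in the KO-labelled libraries, against 923, 1078 and 959 FPKM in WT. The groups overlap throughout, and WT 2 alone lies above all 3 KO-labelled libraries. A log2 difference of -0.10 (95% interval -0.49 to 0.28, limma adjusted p = 0.791) separated the means, and it turned to 0.29 after quantile normalization and 0.08 with the multiciliated covariate. An antisense gene covers 1566 bases of Lipe exons.

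Mgll encodes monoglyceride lipase, the last of the 3 hydrolases (ENSMUSG00000033174, chr6:88724412-88828360, plus strand). It had 378, 391 and 409.8 FPKM in the KO-labelled libraries, against 413, 420.2 and 441 FPKM in WT. The groups do not overlap, but KO 3 and WT 1 differ by less than the spread within either group. The means were 393 ± 16.0 FPKM in the KO-labelled libraries and 425 ± 14.5 FPKM in WT (SD, n = 3 each). The log2 difference was -0.11 (95% interval -0.42 to 0.19, limma adjusted p = 0.714) and 0.20 after quantile normalization, and the exact permutation p was 0.1. An antisense gene covers 167 bases of Mgll exons.

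Of the beta-adrenergic receptors, Adrb3 encodes the one that carries most catecholamine signal in rodent fat cells (ENSMUSG00000031489, chr8:27225776-27250616, minus strand). It had 554, 472 and 698 FPKM in the KO-labelled libraries, against 667, 749.7 and 859.6 FPKM in WT. KO 3 lies above WT 1, and the other KO-labelled libraries lie below all of WT. The means were 575 ± 114 FPKM in the KO-labelled libraries and 759 ± 96.8 FPKM in WT (SD, n = 3 each). The log2 difference was -0.41 (95% interval -0.89 to 0.07, limma adjusted p = 0.434), was -0.08 after quantile normalization and turned to 0.04 with the multiciliated covariate. An antisense gene covers 839 bases of Adrb3 exons.

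Adrb1 encodes the beta-1 receptor, which binds noradrenaline more tightly than the beta-3 receptor does (ENSMUSG00000035283, chr19:56722199-56733113, plus strand). It had 2.25, 3.21 and 2.90 FPKM in the KO-labelled libraries, against 6.54, 2.46 and 7.03 FPKM in WT. The high libraries are WT 1 and WT 3, while WT 2 lies among the KO-labelled libraries. The means were 2.79 ± 0.491 FPKM in the KO-labelled libraries and 5.35 ± 2.51 FPKM in WT (SD, n = 3 each), or 52.1% of the WT mean. The log2 difference was -0.66 (95% interval -1.44 to 0.12, limma adjusted p = 0.438), -1.05 without WT 2 (limma adjusted p = 0.280) and -0.44 without WT 3. Quantile normalization gave -0.83 (limma adjusted p = 0.298) and sample weights gave -0.96 (limma adjusted p = 0.0475, the lowest over the alternatives, which reached 1.0).

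Pde3b encodes the cyclic AMP phosphodiesterase through which insulin restrains lipolysis (ENSMUSG00000030671, chr7:114415281-114539251, plus strand). It had 80.9, 96.7 and 91.7 FPKM in the KO-labelled libraries, against 94.97, 102 and 98.3 FPKM in WT. Only KO 2 lies within the WT range, and the group means of 89.8 ± 8.08 FPKM in the KO-labelled libraries and 98.6 ± 3.76 FPKM in WT (SD, n = 3 each) are close. On the log2 scale the difference was -0.14 (95% interval -0.41 to 0.14, limma adjusted p = 0.617) and 0.08 after quantile normalization.

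Aqp7 encodes the aquaglyceroporin by which glycerol leaves the fat cell (ENSMUSG00000028427, chr4:41033074-41048139, minus strand). It had 71.4, 85.4 and 63.5 FPKM in the KO-labelled libraries, against 88.5, 83.4 and 69.8 FPKM in WT. The groups overlap, and KO 3 and WT 3 are the lowest libraries of their groups. Its log2 difference was -0.13 (95% interval -0.50 to 0.23, limma adjusted p = 0.713) and 0.06 after quantile normalization. Over 17 alternatives the Aqp7 difference ran from -0.46 to 0.06, and sample weights gave -0.24 (limma adjusted p = 0.153).

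**Figure D2:**
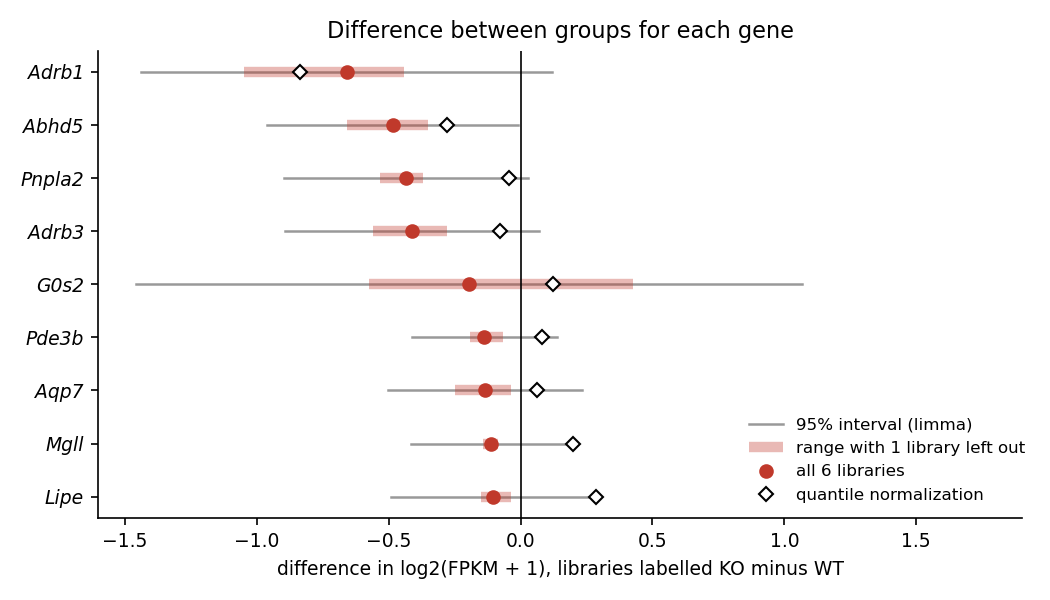
Difference in log2(FPKM + 1), libraries labelled KO minus WT, for the 9 genes, with limma's 95% interval (grey line), the range when 1 library is left out (red band) and the value after quantile normalization (open diamond). All filled points lie left of 0, only the interval of Abhd5 stays below 0, and 5 of the 9 diamonds lie right of 0.

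The levels of these genes spanned a wide range. Over the 6 libraries, Pnpla2 averaged 1408 FPKM, Lipe 952, Adrb3 667, Mgll 409, G0s2 377, Pde3b 94.2, Aqp7 77.0, Abhd5 76.8 and Adrb1 4.07 FPKM. Pnpla2 ranked between 19 and 39 among all genes of a library, Lipe between 32 and 72 and Adrb3 between 52 and 92, whereas Adrb1 ranked between 7802 and 11405. Pnpla2 was above Lipe in all 6 libraries, and their ranges over the libraries do not overlap. Neighbours in the order whose ranges overlap were Lipe and Adrb3, Mgll and G0s2, Pde3b and Aqp7, and Aqp7 and Abhd5. Lipe was nonetheless above Adrb3, and Pde3b above Aqp7, in all 6 libraries, while Mgll was above G0s2 and Aqp7 above Abhd5 in 4 of 6. The coactivator Abhd5 was thus far below its lipase in transcript level, at 0.0522, 0.0483 and 0.0586 of the Pnpla2 FPKM in the KO-labelled libraries and 0.0531, 0.0417 and 0.0750 of it in WT. Adrb3 was 247, 147 and 241 times the FPKM of Adrb1 in the KO-labelled libraries and 102, 304 and 122 times in WT. Together the 9 genes took 0.800%, 0.783% and 0.939% of all FPKM in the KO-labelled libraries, and 0.889%, 0.958% and 0.753% in WT, so that the shares overlap.

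The members were also set against the adipocyte markers within each library. In the deposited scaling 11 of the 12 markers were lower in the KO-labelled libraries, with a median log2 difference of -0.48, but after quantile normalization 8 of 12 were, with a median of -0.06, close to that of all genes. With the multiciliated covariate the marker median was -0.22. The mean log2 FPKM of the 12 markers was 9.57, 9.59 and 9.84 in the KO-labelled libraries, against 10.02, 9.99 and 10.48 in WT, a difference of -0.50 with an exact permutation p of 0.1. Relative to that mean, Pnpla2 stood at 0.53, 0.56 and 0.58 on the log2 scale in the KO-labelled libraries, against 0.68, 0.80 and -0.01 in WT. The difference in relative level was 0.06 for Pnpla2, 0.01 for Abhd5 and 0.09 for Adrb3, and each was of the opposite sign without the 4 markers with short transcripts, at -0.11, -0.16 and -0.08. Mgll relative to the markers was -1.001, -0.97 and -1.16 in the KO-labelled libraries, against -1.32, -1.27 and -1.70 in WT, with every library labelled KO above every WT library and a difference of 0.39. Lipe (0.40), Aqp7 (0.36), Pde3b (0.36) and G0s2 (0.30) had positive differences with overlapping groups, and Adrb1 had one of -0.16. Without the 4 markers with short transcripts, the difference of the marker mean was -0.33. Over 8 alternatives the relative difference ran from 0.22 to 0.47 for Mgll, 0.22 to 0.55 for Lipe and 0.105 to 0.55 for Aqp7. It ran from 0.19 to 0.48 for Pde3b, 0.01 to 0.76 for G0s2 and -0.46 to 0.085 for Adrb1. Exact permutation p-values ran from 0.1 to 1.0, and from 0.6 to 1.0 after Benjamini-Hochberg adjustment over the 9 genes. At this n no member was shown to differ from the adipocyte markers.

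**Figure D3:**
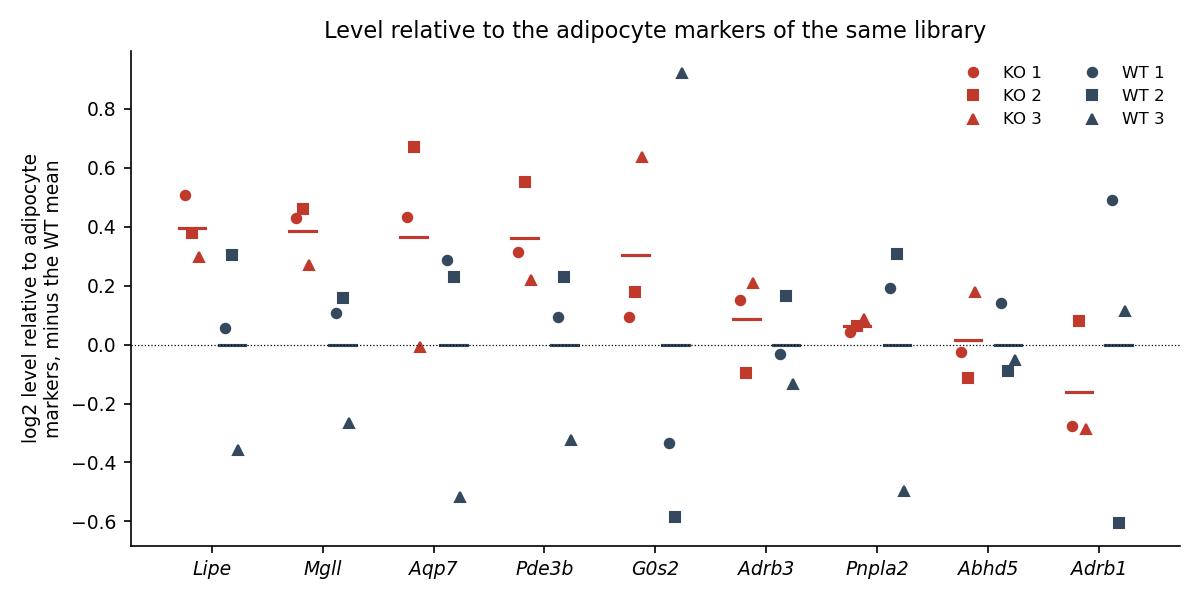
Log2 level of each gene relative to the mean of 12 adipocyte markers in the same library, shown minus the WT mean of that gene (dotted line at 0). Red points are libraries labelled KO, dark blue points WT, and bars are group means of 3. For Mgll the KO-labelled libraries lie above all WT libraries, and WT 3 is the lowest WT library for Lipe, Mgll, Aqp7, Pde3b, Adrb3 and Pnpla2.

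Ratios between members, chosen after their values were seen, compare transcript levels within the cascade, not activities. They do not depend on a scaling factor of the library. The ratio of Lipe to Pnpla2 was 0.844, 0.761 and 0.707 in the KO-labelled libraries, against 0.556, 0.610 and 0.672 in WT. Every library labelled KO was above every WT library, and the log2 difference of 0.33 ran from 0.26 to 0.40 with 1 library left out. The exact permutation p was 0.1, the smallest that this test allows, and 0.6 after adjustment over the 6 ratios computed. Mgll to Pnpla2 was 0.344, 0.347 and 0.299 in the KO-labelled libraries and 0.249, 0.238 and 0.309 in WT, overlapping through KO 3 and WT 3. The inhibitor G0s2 to Pnpla2 was 0.228, 0.238 and 0.322 in the KO-labelled libraries and 0.153, 0.118 and 0.588 in WT, with a log2 difference of 0.24 over all libraries, -0.02 without WT 1, -0.21 without WT 2 and 0.95 without WT 3. Pde3b to Adrb3, again in transcript level only, was 0.146, 0.205 and 0.131 in the KO-labelled libraries and 0.142, 0.137 and 0.114 in WT, and the groups overlap.

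The rest of the pathway was read from 88 further genes in 12 groups, all in the table, of which 82 were tested. Of the 82, 49 were lower and 33 higher in the KO-labelled libraries, 0 passed limma's adjusted threshold, and 5 lower and 4 higher genes had an unadjusted p under 0.05, against 4.43% and 9.13% of all genes. Every KO-labelled library was below every WT library in 9 of the 82 and above in 5, against 12.2% and 10.1% of all genes. The median log2 difference of the 82 was -0.06, close to that of all genes, and 44 of 82 were below 0 after quantile normalization. Direction counts below stand beside 59.2% of all genes below 0 in the deposited scaling and 59.6% after quantile normalization. Most genes named below are the 2 tested genes with the smallest limma p in their group.

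Among catecholamine receptors, 4 of 7 genes were tested and 3 were lower, and likewise 3 after quantile normalization. Adra1a, an alpha-1 receptor, had 1.35, 1.88 and 2.02 FPKM in the KO-labelled libraries, against 3.71, 3.44 and 3.50 FPKM in WT. The groups do not overlap, and the log2 difference was -0.74 (limma adjusted p = 0.223). The 3 antilipolytic alpha-2 receptor genes averaged under 1 FPKM and were not tested. Of these, named after their values were seen, Adra2b had 0.931, 1.29 and 0.622 FPKM in the KO-labelled libraries and 0.42, 0.179 and 0.089 FPKM in WT. Adra2c had 1.98, 1.43 and 0.736 FPKM in the KO-labelled libraries and 0.45, 0.226 and 0.483 FPKM in WT, so that for both every library labelled KO was above every WT library, while the groups of Adra2a overlap. In Adra2b and Adra2c, KO 1 and KO 2 stood above KO 3, and KO 3 above WT 1. The multiciliated and epithelial marker sums did likewise. Over WT those sums and Adra2b fell from WT 1 to WT 3, whereas the highest WT library for Adra2c was WT 3. The part of other cells in these values was not tested. From the receptors to cyclic AMP, 10 of 12 G protein and adenylyl cyclase genes were tested, and 5 were lower and 5 higher, against 2 lower after quantile normalization. Adcy7, a cyclase, had 11.2, 10.2 and 12.8 FPKM in the KO-labelled libraries, against 8.43, 9.65 and 8.28 FPKM in WT, a difference of 0.33 (limma adjusted p = 0.306). Adcy8, a calcium-stimulated cyclase, had 6.01, 6.25 and 3.47 FPKM in the KO-labelled libraries, against 3.09, 0.04 and 0.015 FPKM in WT. Its difference was 1.91 (limma adjusted p = 0.223), and the order of its values over WT libraries was that of the multiciliated marker sums. With the multiciliated covariate, which is confounded with group, the Adcy8 difference was -0.16.

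Downstream of the cyclases, 5 of 7 protein kinase A genes were lower (4 after quantile normalization) and 2 higher. The catalytic subunit Prkacb had a difference of 0.30 and the anchoring protein Akap1 one of -0.21, while the more abundant catalytic subunit Prkaca, named after its values were seen, had one of -0.23. Desensitisation genes gave 2 lower (1 after quantile normalization) and 1 higher, with the arrestins Arrb2 at -0.17 and Arrb1 at 0.06. Of 6 other phosphodiesterases, 5 were higher and 1 lower, although all 6 were below 0 after quantile normalization, with Pde7b at 0.29 and Pde4a at 0.14 in the deposited scaling. Antilipolytic receptors coupled to Gi and their G proteins were lower in 5 of 9, and in 4 after quantile normalization. Hcar1, the lactate receptor, had 46.2, 30.6 and 67.1 FPKM in the KO-labelled libraries, against 80.6, 75.5 and 47.2 FPKM in WT, a difference of -0.52 with overlapping groups, and Gnai1, a Gi subunit, had one of -0.23, which quantile normalization took to 0.001. In the insulin arm, 5 of 8 genes were lower (3 after quantile normalization), with Irs1, an insulin receptor substrate, at -0.32. Abhd15, a partner of PDE3B in insulin's brake on lipolysis, had 34.2, 34.6 and 35.5 FPKM in the KO-labelled libraries, against 36.0, 45.0 and 38.4 FPKM in WT, a difference of -0.19 (limma adjusted p = 0.516) with groups that do not overlap. Natriuretic peptide genes were higher in 3 of 4, with the cyclic GMP kinase Prkg1 at 0.44 and the receptor Npr2 at -0.07, and 0 of 4 were below 0 after quantile normalization. None of the genes in this paragraph had an unadjusted limma p under 0.05.

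At the droplet, 6 of 8 coat and fusion genes were lower, or 5 after quantile normalization. Of the 8, 2 had an unadjusted limma p under 0.05 as lower, against 4.43% of all genes. Plin1 and Plin4 of this group are, like Cidec, among the 12 adipocyte markers. Plin2, a coat protein, had 116, 119 and 137 FPKM in the KO-labelled libraries, against 155, 188 and 189 FPKM in WT. Its groups do not overlap, and the difference was -0.51 (95% interval -0.84 to -0.18, limma adjusted p = 0.223), or -0.26 after quantile normalization. Cidec, the droplet fusion protein, which is also 1 of the 12 adipocyte markers, had a difference of -0.49 (limma adjusted p = 0.367) and one of -0.06 after quantile normalization. Plin1, the perilipin that holds CGI-58, had 1135, 1044 and 1210.4 FPKM in the KO-labelled libraries, against 1097, 1222 and 1281 FPKM in WT, with overlapping groups, and was named outside the rule because it is the perilipin of the cascade.

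Of 9 other lipases and hydrolases, 8 were lower, with a median of -0.39, and 7 were below 0 after quantile normalization, with a median of -0.25. Ces1f, a carboxylesterase, had 56.4, 63.3 and 67.9 FPKM in the KO-labelled libraries, against 119, 86.1 and 141 FPKM in WT. The groups do not overlap, and the difference was -0.85 (95% interval -1.31 to -0.38, limma adjusted p = 0.223), with -0.65 after quantile normalization. Ces1d, a carboxylesterase with triglyceride hydrolase activity, had 425, 481 and 363 FPKM in the KO-labelled libraries, against 492, 571 and 876 FPKM in WT, a difference of -0.58 (limma adjusted p = 0.377). The Ces1 genes are closely related copies in a cluster, so the split of reads between Ces1d and Ces1f is uncertain.

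Genes that handle the released glycerol and fatty acids were 4 lower and 4 higher among 8 tested, and 5 were below 0 after quantile normalization. Of the 8, 1 lower and 2 higher genes had an unadjusted limma p under 0.05, against 4.43% and 9.13% of all genes. Every KO-labelled library was below every WT library in 2 and above in 2, against 12.2% and 10.1% of all genes. The 2 genes named next by their limma p are among the higher. Gk, the glycerol kinase, had 18.7, 20.4 and 12.8 FPKM in the KO-labelled libraries, against 10.6, 2.197 and 2.86 FPKM in WT. Aqp9, an aquaglyceroporin, had 8.36, 8.14 and 4.61 FPKM in the KO-labelled libraries, against 3.62, 2.82 and 1.25 FPKM in WT. Neither gene's groups overlap, and the differences were 1.78 and 1.199 (limma adjusted p = 0.223 for each). Both were highest in KO 1 and KO 2, lower in KO 3 and lower again in WT 1, as were the multiciliated and the epithelial marker sums. With the multiciliated covariate the differences were 0.001 for Gk and 0.28 for Aqp9. That covariate was higher in every KO-labelled library than in any WT library, so it cannot be separated from group. The part of other cells in Gk and Aqp9 was not tested. Of 6 transcription factor genes of the pathway, 4 were lower, and likewise 4 after quantile normalization, with Cebpa at -0.42 and Pparg at -0.33, each with overlapping groups.

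**Figure D4:**
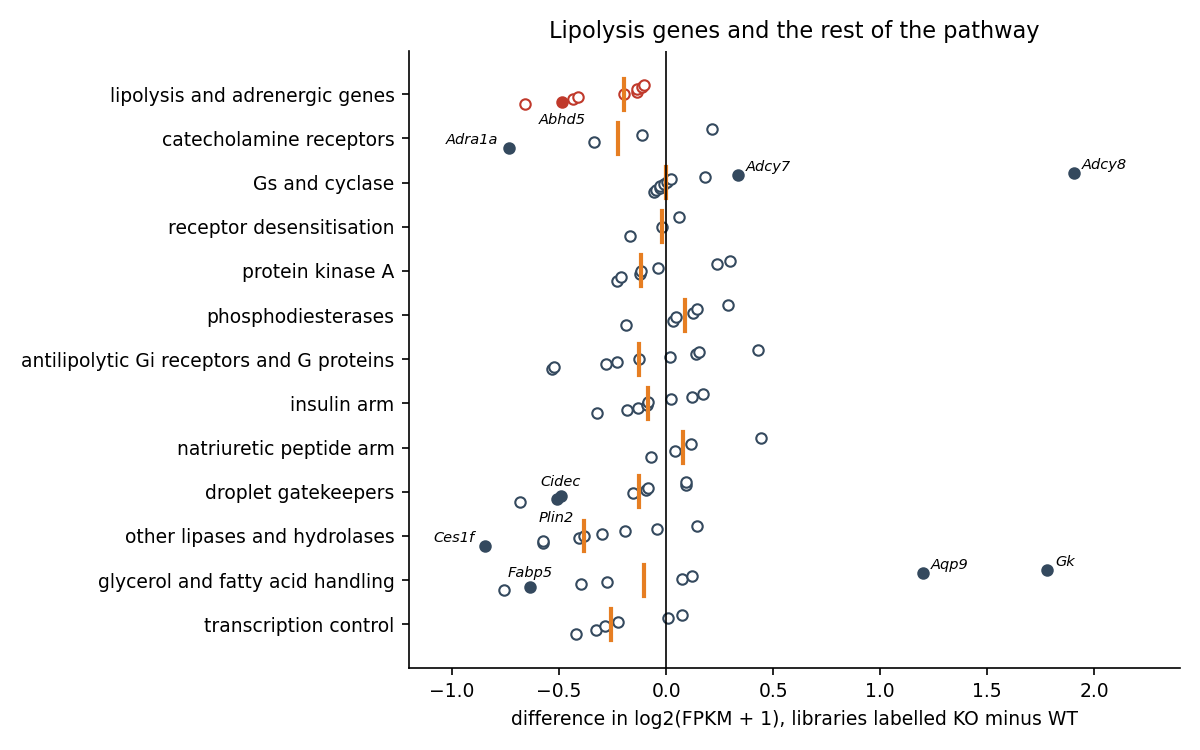
Difference in log2(FPKM + 1), libraries labelled KO minus WT, for the 9 lipolysis and adrenergic genes (red) and the tested genes of 12 pathway groups (dark blue). Each circle is a gene, filled and named where limma's unadjusted p is under 0.05, and orange bars are group medians. No gene passed the adjusted threshold, the red circles lie between -0.66 and -0.10 (5 of the 9 turned positive after quantile normalization), and Adcy8, Gk and Aqp9 stand far to the right.

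The 9 members differed in their profiles across libraries. The mean of their centred log2 values was -0.26, -0.19 and 0.01 in the KO-labelled libraries, against 0.11, -0.01 and 0.35 in WT. Mgll lay nearest to it, with a root mean square distance of 0.133 over the 6 libraries, and G0s2 farthest, with 0.556. Outside the pathway, the 5 nearest genes were Gys1 (muscle-type glycogen synthase), Ppp1ca (a catalytic subunit of protein phosphatase 1), Fkbpl, Naxd (an enzyme that repairs hydrated NADH) and Hadha (a subunit of the mitochondrial trifunctional protein), at distances of 0.0399 to 0.0474. Gys1 had 42.8, 44.4 and 52.1 FPKM in the KO-labelled libraries, against 56.0, 54.9 and 67.1 FPKM in WT. Its groups do not overlap, and its log2 difference was -0.35 (limma adjusted p = 0.321). These 5 were picked for likeness over the same 6 libraries, so their levels are a description.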

How the data were processed

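The 6 libraries, 3 labelled ZFP251 KO and 3 WT, were grouped by their titles. Per the labels' protocols, TRIzol served for extraction and a stranded TruSeq mRNA kit for the libraries. Per the submitters' processing notes, the tools were STAR 2.5.4, Cufflinks and Cuffdiff 2.2.1 and the build was mm10. Which annotation, filters and depth scaling applied is not given in the sources used here. The values the authors deposited, 1 column per library, were read as FPKM, inferred from those tools and from the values, since no header names the unit. Total depth being unknown, counting intervals could not be made. Comparing low FPKM values put depth relative to WT 1 at 0.821, 0.653 and 0.941 in KO 1 to KO 3 and 0.791 in WT 2, with no clear step in WT 3. No count test was run, since whole reads were not recovered.

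The table has 21853 rows. Where a symbol recurred (24 rows), the row of highest mean stood for it. Genes averaging 1 FPKM or more were tested as log2(FPKM + 1), which understates the change of low genes, with limma 3.58.1 in R 4.3.3 (group as the only term, a mean-variance trend, Benjamini-Hochberg adjustment over 12539 genes, threshold 0.05). Differences are KO minus WT. Exact permutation tests, two-sided, used scipy 1.17.1 in Python 3.11.15. The fit was tested on simulated data. GENCODE vM21 (GRCm38, the assembly of mm10) gave lengths and positions, and promoter windows from RefSeq GRCm38.p6.

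The members and gene lists were chosen with earlier results of these data known. Named genes were Zfp251, the 9 members, the 2 tested genes with the smallest p in each of 12 pathway groups, and the 5 genes nearest to the members' mean profile, leaving out predicted genes, Riken clones and pseudogenes. Plin1, Prkaca, Adra2b and Adra2c were named outside that rule, and 1 gene that the rule names is not reported here. Alternatives were pseudocounts of 0.1 and 0.5, no filter and one at 5 FPKM, scaling by median ratios or by quantiles, no trend, sample weights, each library left out, the replicate number as a block, a length and GC correction, and a multiciliated covariate. The ratios between members were added after seeing the data.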

Additional observations from a re-analysis of the deposited data

How the results depend on the processing

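Of 814 alternative values, 741 kept their direction and side of the threshold or moved little, 40 reversed, 18 moved and 15 passed the threshold where the reported value did not. The count of genes past the adjusted threshold, 0 as reported, was 970 with sample weights and between 0 and 482 with 1 library left out, 482 being without WT 1. The count with an unadjusted p under 0.05, 1700 as reported, was 974 with the filter raised to 5 FPKM, 3914 with sample weights, 170 with the multiciliated covariate and between 866 and 2195 with 1 library left out. Members with an unadjusted p under 0.05, 1 as reported, numbered 2 with that filter, 0 with median-ratio scaling, 2 without the trend, 5 with sample weights, 2 with the length and GC correction, 0 with the covariate and between 0 and 2 with 1 library left out. Adrb1 does not reach that filter and has no value there. The Zfp251 difference was 0.64 with sample weights (limma adjusted p = 0.0367) and between 0.65 and 0.78 with 1 library left out, its adjusted p being 0.0409 without WT 1.

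Quantile normalization reversed Lipe (0.29), Mgll (0.20), G0s2 (0.12), Pde3b (0.081), Aqp7 (0.062), Pde7b (-0.008), Pde4a (-0.006), Gnai1 (0.001), Npr2 (0.057) and Ppp1ca (0.045). Sample weights reversed G0s2 (0.10) and Arrb1 (-0.026), and the length and GC correction reversed Arrb1 (-0.017). The multiciliated covariate reversed Lipe (0.076), G0s2 (0.81), Adrb3 (0.04), Adcy8 (-0.16), Arrb2 (0.049), Arrb1 (-0.17), Prkacb (-0.084), Pde7b (-0.11), Abhd15 (0.009), Prkg1 (-0.051), Cebpa (0.029) and Pparg (0.24). With 1 library left out, G0s2 ran from -0.57 to 0.43 and Arrb1 from -0.16 to 0.21. Relative to the adipocyte markers, Pnpla2 ran from -0.18 to 0.22, Abhd5 from -0.069 to 0.084 and Adrb1 from -0.46 to 0.085. Without the 4 short transcripts, Pnpla2 (-0.11), Abhd5 (-0.16) and Adrb3 (-0.081) reversed. The log2 ratio of Abhd5 to Pnpla2 ran from -0.26 to 0.17 and that of G0s2 to Pnpla2 from -0.21 to 0.95. The cause of these reversals was not tested.

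With the replicate number as a block, 1714 genes had an unadjusted p under 0.05, 0 passed the adjusted threshold, and Abhd5 was again the member under 0.05 (unadjusted p = 0.0131, limma adjusted p = 0.184). Between same-numbered libraries the deviations from the group means had correlations of 0.23, -0.20 and 0.22. KO 2 correlated best with WT 1 (0.43) and KO 3 with WT 2 (0.25), so the numbers were not taken as pairs. Group size of 3, unknown depth and WT 3, whose short transcripts stood high, limit these values.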
